A study of Schizosaccharomyces pombe with 6 samples.

Results

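The 26S proteasome is the protease that degrades ubiquitin-tagged proteins in the cytosol and nucleus. Its barrel-shaped core particle (20S) is built of alpha rings, which gate the entrance, and beta rings, which hold the protease sites. The regulatory particle (19S) caps the barrel: its base carries the Rpt ATPases, which unfold substrates, and its lid and receptors (Rpn subunits) bind and remove ubiquitin. Fission yeast mutants of several of these genes arrest in mitosis, since cyclin and securin must be degraded for sister chromatids to part. The genes for these subunits and their helpers were taken as those with an rpt or rpn symbol, or with the word proteasome in the deposited gene description. This gave 44 of the 5160 entries of the table: 7 alpha and 7 beta core genes, 6 rpt genes, 15 Rpn genes (mts4, which encodes Rpn1, among them) and 9 genes for assembly factors, inhibitors and a nuclear tether. All 44 were detected in every library and passed the expression filter, so none was lost to it. The deposited descriptions give 1 gene for each of the 7 alpha and 7 beta positions of the core.

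Poly(A)-selected RNA of whole Schizosaccharomyces pombe cells was sequenced in 6 libraries, 3 from the wild type and 3 from a dsk1 mutant. Dsk1 is a kinase of SR splicing proteins. The genotype label calls the mutant a knockdown and the series text a deletion, and no other allele, medium or growth stage is given for either group. The labels do not say whether replicates were separate cultures, so p-values measure the spread between these libraries, which may be technical.

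Library totals were 15700362 to 19020530 counts. The dsk1 transcript was at 99.4 to 102 CPM (counts relative to library size, scaled by TMM) in the wild type and 11.3 to 13.7 CPM in the mutant. Wild-type replicate 2 stood apart, at -37.9 on a first principal component with 60.1% of the variance, against -9.54 to 19.6 for the other 5 libraries. Values that leaving it out moves by over 1.5 times, among the genes named below as extremes, are given with and without it. Heat-induced chaperone genes summed to 17300 CPM in that library and 16000 CPM in mutant replicate 3, against 10400 to 12200 CPM in the other 4. Markers of mating and meiosis summed to 338 to 460 CPM in the wild type and 411 to 517 CPM in the mutant, with all 9 detected genes present in every library. Of 6 markers of stationary phase and starvation, isp4 was called higher in the mutant (log2 fold change 1.45, adjusted p = 0.0426), and their sum was highest in wild-type replicate 2 (5120 CPM) and mutant replicate 3 (4360 CPM). The 7 genes of vegetative growth gave no call and summed to 17800 to 29500 CPM. In the fit without wild-type replicate 2, 9.32% of all genes were called. Among them were 3 of the 9 mating and meiosis markers and 2 of the 6 starvation markers. The markers spk1, mam2, isp4 and fbp1 were higher in the mutant and rec8 was lower. The part of these states in the results below was not tested. In such bulk RNA, fewer cells of a type and less RNA per cell cannot be told apart.

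The subunit Rpn5 is encoded by a pair of genes, rpn501 and rpn502, whose coding sequences differ at 2 of 1332 bases (99.8% identical), and this bears on how their counts can be read. The stretches around both differences are shown from RefSeq assembly ASM294v3, with the differing base in capitals. The authors' build is not given in the sources used here, and genes were matched by systematic name. For coding bases 948 to 1007, rpn501 lies at chrI:1267263-1267322 on the plus strand and rpn502 at chrI:4909822-4909881 on the minus strand. For coding bases 1101 to 1160, they lie at chrI:1267416-1267475 and chrI:4909669-4909728.
rpn501 around base 978: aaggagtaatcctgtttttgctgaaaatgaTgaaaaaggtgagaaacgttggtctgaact
rpn502 around base 978: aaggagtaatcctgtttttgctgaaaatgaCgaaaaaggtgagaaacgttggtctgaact
rpn501 around base 1131: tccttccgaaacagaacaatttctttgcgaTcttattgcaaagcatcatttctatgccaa
rpn502 around base 1131: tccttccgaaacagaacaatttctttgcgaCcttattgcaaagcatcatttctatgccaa
The longest stretch without a difference is 977 coding bases, so reads inside it cannot be told apart between the copies, and how the authors assigned such reads is not stated. By contrast, the coding sequences of the ubiquitin receptor pair rpn1301 and rpn1302 were 53.9% identical over their alignment, with no shared run over 14 bases.

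No proteasome gene passed the test in the dsk1 mutant. With edgeR's quasi-likelihood test, 0 of the 44 genes were called at a Benjamini-Hochberg adjusted p under 0.05, 0 higher and 0 lower, against 2.03% of all 4987 genes tested (0.441% higher and 1.58% lower), and the members' adjusted p ranged from 0.113 to 0.945. At an unadjusted p under 0.05 there were 5 members, 3 higher and 2 lower, against 22.7% of all genes. The DESeq2 Wald test called 1 member, cut8, against 11.5% of all genes. The median log2 fold change (mutant over wild type) over the members was -0.03, with 21 above 0 and 23 below, beside a median of 0.00 over all genes tested. With library totals as scaling both medians were higher, 0.01 over the members and 0.04 over all genes.

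Without a correction for transcript length, the fit bounds how much most of these transcripts could have moved. The 95% interval of the fold change lay within 2-fold in either direction for 41 of the 44 genes, as it did for 79.5% of all genes, and within 1.5-fold for 30, as it did for 41.7% of all genes. The 3 genes with wider intervals were rpn2, ecm29 and fub2, named after their values were seen. Standard errors (SE) of the log2 fold change ran from 0.10 for pre8 to 0.87 for fub2. With the length correction described below, some log2 fold changes lay outside the intervals above. Examples were pup2 (0.21 against -0.57 to 0.12) and pre8 (-0.29 against -0.26 to 0.21). The SE of rpn1301 was then 0.24 instead of 0.10. The members had a median exon length of 1309 bases against 1711 for all genes, and their median wild-type FPKM (a level per transcript length and library size) of 140.0 was above the 39.8 of all genes.

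**Figure D1:**
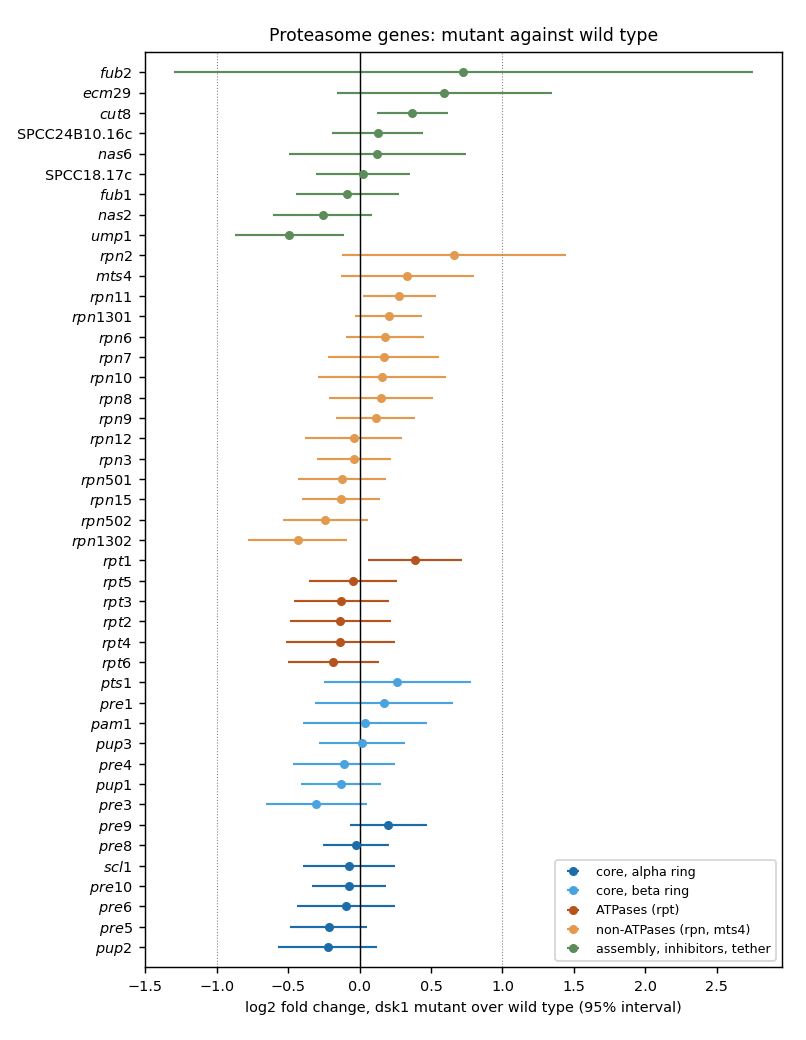
Log2 fold change of each of the 44 proteasome genes, dsk1 mutant over wild type (x axis), with 95% intervals from the edgeR fit as bars; dotted lines mark 2-fold, and colours mark the role of the subunit. Most points lie close to 0, and the intervals of rpn2, ecm29 and fub2 cross a 2-fold line.

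The alpha subunits form the outer rings of the core particle. All 7 had intervals within 1.5-fold in the fit without a length correction. None passed, and 2 had groups without overlap, against 32.1% of all genes. The gene for alpha 3, pre9, had the largest positive value. It was at 195, 166 and 197 CPM in the wild type and 222, 209 and 212 CPM in the mutant, without overlap (log2 fold change 0.20, SE 0.12, adjusted p = 0.325), and the log2 fold change was 0.13 without wild-type replicate 2. The gene for alpha 5, pup2, had the most negative one. It was at 429, 498 and 472 CPM in the wild type and 351, 371 and 476 CPM in the mutant (log2 fold change -0.22, SE 0.15, adjusted p = 0.390). Here mutant replicate 3 reached the wild-type range while the other mutant libraries lay below it. The alpha 6 gene pre5 was also lower without overlap, at 318 to 360.5 CPM in the wild type and 278 to 317 CPM in the mutant (log2 fold change -0.22, adjusted p = 0.296). The others, scl1, pre8, pre6 and pre10, lay between -0.10 and -0.03. The alpha 2 gene pre8 was the steadiest of the core, between 259 and 276 CPM over all 6 libraries.

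The beta subunits carry the protease sites: beta 1 (pre3) cuts after acidic residues, beta 2 (pup1) after basic ones and beta 5 (pts1) after hydrophobic ones. Groups without overlap were found in 0 of the 7 beta genes, against the same 32.1% of all genes. The beta 1 gene pre3 was at 203, 196 and 254 CPM in the wild type and 155, 175 and 199 CPM in the mutant (log2 fold change -0.30, SE 0.15, adjusted p = 0.275). Its lowest values were thus in mutant libraries, but mutant replicate 3 lay above wild-type replicate 2. The beta 5 gene pts1 had the largest positive value, at 142, 90.0 and 171 CPM in the wild type and 157, 158 and 169 CPM in the mutant. Its log2 fold change of 0.26 (SE 0.22, adjusted p = 0.487) was 0.05 without wild-type replicate 2 and 0.48 without wild-type replicate 3. The beta 2 gene pup1 was at -0.13 with overlapping groups. The structural beta genes pup3, pre1, pam1 and pre4 lay between -0.11 and 0.17. Over the 14 core genes the median log2 fold change was -0.08, with 5 above 0 and 9 below.

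The 6 Rpt ATPases form 1 ring that threads substrates into the core. Groups without overlap were found in 1 of their genes, against 32.1% of all genes. The other 5 lay between -0.18 (rpt6) and -0.05 (rpt5, at 0.004 without wild-type replicate 2), each with overlapping groups. The gene without overlap was rpt1, at 199, 166 and 225 CPM in the wild type and 249, 244 and 279 CPM in the mutant. These groups did not overlap, and the log2 fold change was 0.39 (SE 0.14, 95% interval 0.06 to 0.72), but it did not pass (adjusted p = 0.171). By contrast, rpt2 was at 479, 517 and 499.6 CPM in the wild type and 412, 399 and 552 CPM in the mutant, and rpt6 at 376, 434 and 402 CPM against 329.8, 325 and 413 CPM. In both, mutant replicate 3 was the highest mutant library and reached the wild-type range.

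Of the 15 Rpn genes, 5 had groups without overlap (33.3%), against 32.1% of all genes. Among non-ATPase genes of the regulatory particle, the scaffold genes rpn2 and mts4 had the highest log2 fold changes over all 6 libraries. Without wild-type replicate 2, mts4 lay below rpn11 (0.26) and rpn1301 (0.22). Rpn2, with Rpn1, is the platform on which the ATPase ring and the ubiquitin receptors sit. Its gene rpn2 was at 636, 297 and 836 CPM in the wild type and 839, 953 and 1006 CPM in the mutant. The groups did not overlap, although wild-type replicate 3 came close to mutant replicate 1. The log2 fold change of 0.66 (SE 0.34, adjusted p = 0.280) was 0.34 without wild-type replicate 2 and 1.0 without wild-type replicate 3. The Rpn1 gene mts4 was at 438, 304 and 507 CPM against 477, 501 and 596 CPM, with overlap. Its log2 fold change of 0.33 (adjusted p = 0.346) was 0.15 without wild-type replicate 2.

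Rpn11 is the deubiquitinase that removes ubiquitin chains as a substrate enters. Its gene was at 222, 226 and 246 CPM in the wild type and 265, 277 and 300.1 CPM in the mutant, so that each mutant library lay above each wild-type one. The log2 fold change was 0.28 (SE 0.11, 95% interval 0.02 to 0.54) and did not pass (adjusted p = 0.193). An annotated gene on the same strand, SPAC31G5.21, overlaps rpn11, so its counts are uncertain. The lid genes rpn6, rpn7, rpn8 and rpn9 lay between 0.11 and 0.18, rpn3 and rpn12 at -0.04, and rpn15, which encodes the small acidic protein Dss1, at -0.13. Of these, rpn6 had groups without overlap, at 182 to 224 CPM in the wild type and 231 to 235 CPM in the mutant. For the Rpn5 pair, rpn501 was at 266, 249 and 311 CPM against 246, 233 and 279 CPM (log2 fold change -0.12, or -0.19 without wild-type replicate 2), and rpn502 at 325, 309 and 363 CPM against 263, 265 and 315 CPM (-0.24). Both pairs of groups overlapped. The sum of both does not depend on how shared reads were divided between them if each read was counted once, which is not stated. This sum was 591, 558 and 674 CPM in the wild type and 510, 498 and 595 CPM in the mutant.

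The ubiquitin receptor genes of the Rpn13 pair differed in direction. The gene rpn1301, for Rpn13a, was at 79.2, 81.2 and 77.1 CPM in the wild type and 89.9, 91.7 and 91.7 CPM in the mutant (log2 fold change 0.20, SE 0.10, adjusted p = 0.272). The gene rpn1302, for Rpn13b, was at 27.4, 32.1 and 32.5 CPM in the wild type and 24.6, 23.0 and 20.4 CPM in the mutant (log2 fold change -0.43, SE 0.15, 95% interval -0.78 to -0.09, adjusted p = 0.152). Neither passed, and neither had overlapping groups, which was also so for 32.1% of all genes. The ratio of their FPKM, rpn1301 over rpn1302, was 2.23, 1.95 and 1.83 in the wild type and 2.82, 3.07 and 3.47 in the mutant. Their summed level stayed between 107 and 115 CPM in all 6 libraries. As rpn1302 is covered over 80.3% of its span by a noncoding gene on the other strand and the use of strand in counting is not given, its counts are uncertain. The third receptor gene, rpn10, was at 0.16 with overlapping groups.

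Over all 6 libraries, the helper genes fub2 and ump1 had the most positive and the most negative log2 fold change of the members. Without wild-type replicate 2 those places were held by rpn2 (0.34) and rpn1302 (-0.40). Of the 9 helper genes, 2 had groups without overlap, against 32.1% of all genes. Cut8 anchors proteasomes in the nucleus of fission yeast. Its gene was at 148, 134 and 144 CPM in the wild type and 176, 195 and 179 CPM in the mutant, with a log2 fold change of 0.37 (SE 0.11, 95% interval 0.12 to 0.62). This was the smallest adjusted p of the 44 (0.113), and every mutant library lay above every wild-type one. The DESeq2 Wald test called it (log2 fold change 0.37, adjusted p = 0.0239), while other settings gave an adjusted p of up to 0.634. In the authors' deposited table cut8 had an adjusted p of 0.0207 and was the 1 member under 0.05, against 11.0% of all entries. The gene scs22 covers 70.0% of cut8 on the other strand, so these counts are uncertain as well.

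Ump1 is a chaperone of core assembly that, in budding yeast, is enclosed in the forming barrel and becomes its first substrate. Its gene was at 289, 388 and 281 CPM in the wild type and 206, 217 and 257 CPM in the mutant, lower in each mutant library than in any wild-type one. The log2 fold change was -0.49 (SE 0.16, 95% interval -0.88 to -0.11) and did not pass (adjusted p = 0.143). It was -0.33 without wild-type replicate 2, the highest library. The gene urb1 covers 34.2% of ump1 on the other strand. Ecm29, which in budding yeast acts in quality control of assembled proteasomes, was at 97.8, 47.6 and 125 CPM against 140.5, 155 and 113 CPM, with overlap. Its log2 fold change of 0.59 (SE 0.32, adjusted p = 0.306) was 0.29 without wild-type replicate 2 and 0.91 without wild-type replicate 3. The gene sdu1 overlaps ecm29 on the same strand. The base assembly chaperone genes nas2 and nas6 were at -0.26 and 0.12, and the predicted proteasome assembly chaperones SPCC18.17c and SPCC24B10.16c at 0.02 and 0.13, each with overlapping groups.

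**Figure D2:**
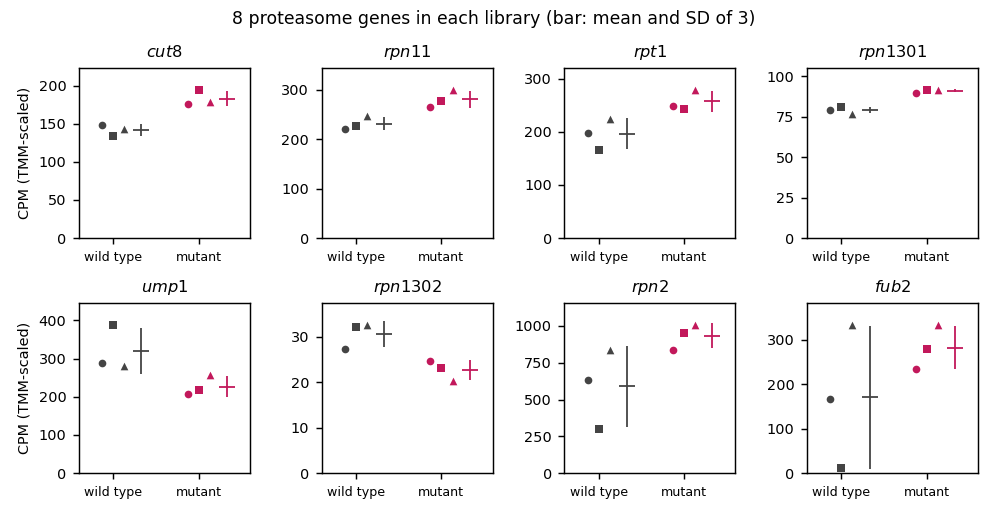
TMM-scaled CPM of 8 proteasome genes in each library (circle, square and triangle for replicates 1, 2 and 3), with the mean and SD of 3 beside them. For cut8, rpn11, rpt1 and rpn1301 each mutant library lies above each wild-type one, for ump1 and rpn1302 below, while rpn2 and fub2 have a low wild-type replicate 2. Of all 44 members, 10 had groups without overlap (22.7%), against 32.1% of all genes.

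The PI31 pair fub1 and fub2 encodes relatives of a protein that inhibits the core particle. The level of fub1 was even, at 42.9, 45.6 and 34.7 CPM in the wild type and 37.4, 35.8 and 42.9 CPM in the mutant (log2 fold change -0.09), and grx2 overlaps it on the same strand. By contrast fub2 was at 167, 11.6 and 332 CPM in the wild type, from 2812, 172 and 6227 counts, a 28.7-fold range within 1 group. In the mutant it was at 235, 279 and 333 CPM, a 1.42-fold range. Wild-type replicate 1 lay between the extremes and wild-type replicate 3 within the mutant range. The comparison of the groups is accordingly loose (log2 fold change 0.73, SE 0.87, 95% interval -1.30 to 2.75, adjusted p = 0.629), with 0.18 without wild-type replicate 2 and 1.65 without wild-type replicate 3.

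Among all genes tested, fub2 had the lowest relative level in wild-type replicate 2. Against the mean of the other wild-type libraries its log2 level was -4.37, rank 1 from the lowest of 4987 genes. SPAC977.18 and SPAC977.02, which followed at -4.19 each, were named after their values were seen. In ASM294v3 fub2 lies at chrII:4453078-4454161, 85.6 kb from the chromosome end, and is the one member within 100 kb of an end, with the next, rpn15, at 195 kb. Its neighbours were not low in that library, except that mug180 was slightly below its level in the other wild-type libraries. The acid phosphatase gene pho1 was at 294, 413 and 208 CPM in wild-type replicates 1 to 3, and the phosphate transporter gene pho84 at 128, 269 and 98.7 CPM. The next gene towards the end, SPBPB2B2.01, was at 11.3, 14.5 and 6.71 CPM, and mug180 beyond it at 12.8, 12.6 and 15.3 CPM. A noncoding gene covers 80.7% of fub2 on the other strand, and its share in the counts was not tested.

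Levels per length differed between the genes of each role. Mean wild-type FPKM of core genes ran from 111 (pts1) to 491 (pup2), that of Rpt genes from 126 (rpt1) to 323 (rpt2), and that of Rpn genes from 22.6 (rpn1302) to 243 (rpn8). The median was 237 for alpha, 148 for beta, 204 for Rpt and 126 for Rpn genes. In the mutant these medians were 231, 155, 190.0 and 134. Among helpers, ump1 had 303 ± 29.8 FPKM (SD, n = 3) in the wild type and ecm29, the lowest member, 16.97 ± 8.31 (SD, n = 3). The order of neighbours within a group was often within the spread, as for rpn501 (177 ± 32.7, SD, n = 3) and rpn502 (195 ± 30.1, SD, n = 3).

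**Figure D3:**
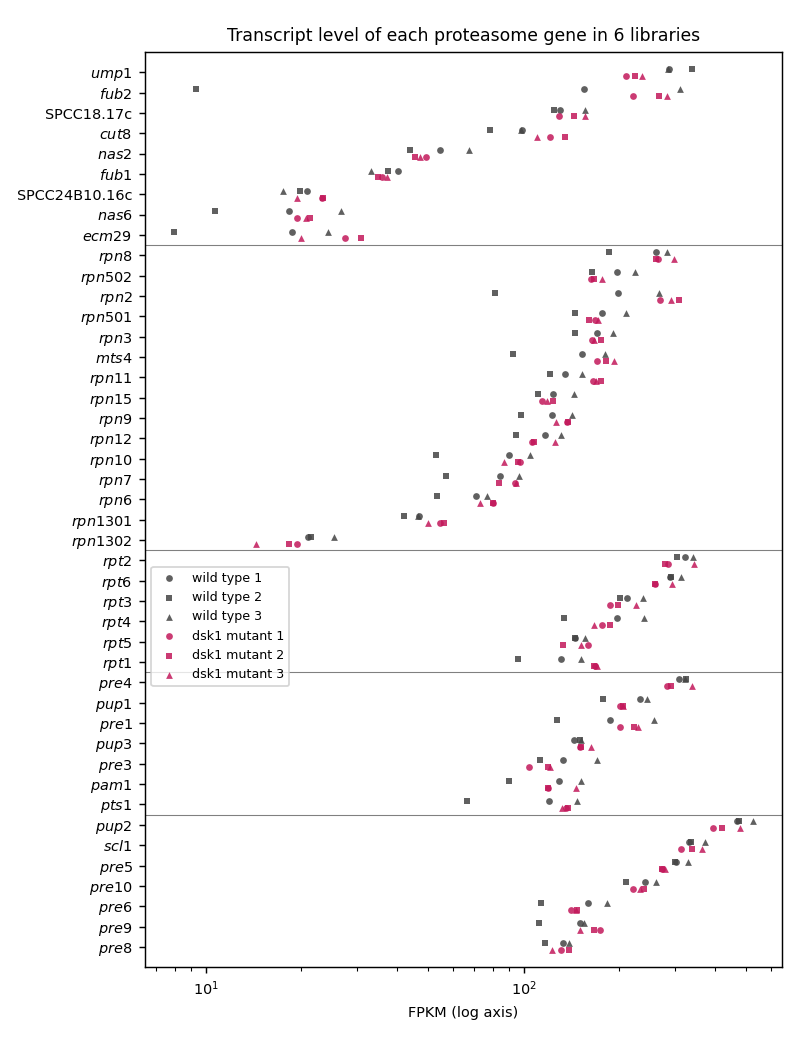
Authors' FPKM of each proteasome gene in each of the 6 libraries (log axis, genes grouped by role and ordered by wild-type mean; wild type dark, mutant pink). Within each role the genes differ several-fold, and the wild-type squares (replicate 2) are leftmost for many genes, with fub2 and rpn2 far from the other wild-type points. FPKM is not TMM-scaled.

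The libraries of a group also differed among themselves over the proteasome genes. In 26 of 44 members (59.1%) wild-type replicate 2 was lowest, replicate 1 in between and replicate 3 highest on the CPM scale, as it was for 31.4% of all genes. This order held in 11 of 15 Rpn genes and in 2 of 6 Rpt genes, and the difference was not tested. Against the other wild-type libraries, replicate 2 deviated by more than 0.5 on the log2 scale in 8 members, while 33.8% of all genes did so. The lowest members after fub2 were rpn2 (-1.31) and ecm29 (-1.22). In the mutant, replicate 3 lay above the mean of the other 2 mutant libraries in 39 of 44 members, by a median of 0.18 on the log2 scale beside -0.02 for all genes. The coefficient of variation was above 40% in the wild type for 3 members, rpn2, ecm29 and fub2, against 8.68% of all genes, and at most 19% in the mutant for any member. These counts describe 6 libraries, which all members share.

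**Figure D4:**
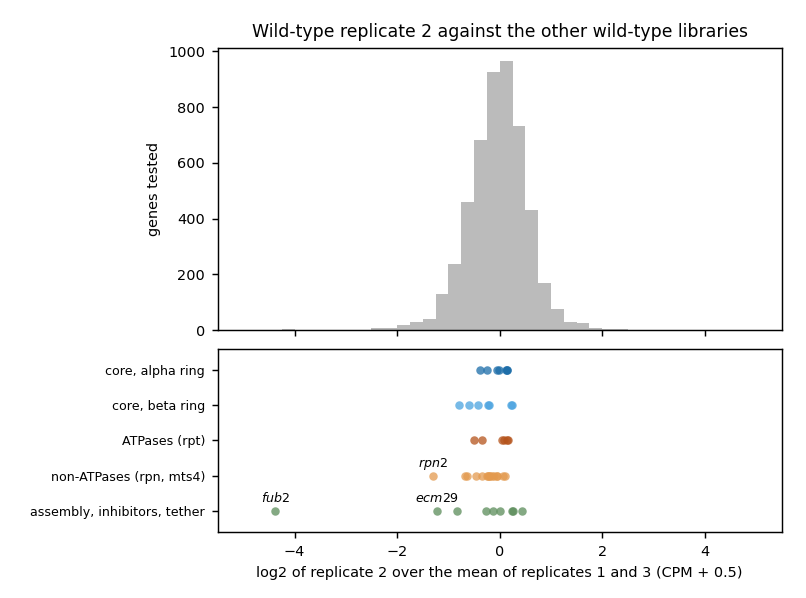
Log2 level of wild-type replicate 2 over the mean of wild-type replicates 1 and 3 (CPM + 0.5), as a histogram of all 4987 genes tested (top) and for each proteasome gene by role (bottom). Most members lie within the bulk of the genes, with fub2 at -4.37, rpn2 at -1.31 and ecm29 at -1.22.

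Without wild-type replicate 2 the picture of no calls held. In that fit 0 of 44 members were called, against 9.32% of all genes, and 10 had an unadjusted p under 0.05, against 27.1% of all genes. The groups did not overlap in 10 of the 44 members, 7 higher and 3 lower, in the comparison of all 6 libraries, against 32.1% of all genes (15.5% higher and 16.6% lower).

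Several of these values moved with a correction for transcript length, in which a smooth trend of level on exon length was removed from each library. Under it the log2 fold change of pre9 was 0.00 and that of rpn11 was 0.05. It was 0.16 for rpt1, -0.14 for pre3, -0.27 for ump1 and -0.23 for rpn1302, and rpn6 changed sign to -0.03. In all, 11 of the 44 members had the other sign under it. Values farther from 0 were found for rpn1301 (0.41), pts1 (0.44) and cut8 (0.57), among other members. These others included rpn10 (0.57), rpn7 (0.56), rpn2 (0.87), ecm29 (0.75), rpt4 (-0.37), pre6 (-0.31) and pre8 (-0.29). No member was called under it.

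Genes listed around the ubiquitin pathway, heat-induced chaperone genes among them, gave no call over all 6 libraries. Of 95 tested genes in 8 lists on ubiquitin, conjugating enzymes, ligases, shuttles, deubiquitinases and heat-induced chaperones, edgeR called 0 higher and 0 lower. In the same fit 2.03% of all genes were called. Without wild-type replicate 2 it called 6 of the 95 (6.32%), 1 higher and 5 lower, against 9.32% of all genes. These were ubc11, ubc12 and ubc13 among conjugating enzymes and pof4, pof7 and skp1 of the SCF ligase, with pof4 higher. Of the 5 genes for ubiquitin and its activating enzyme, ubi3 had the most negative value at -0.48 (-0.27 without wild-type replicate 2) and ptr3 the most positive at 0.02 (-0.08 without it). Of 14 conjugating enzyme genes, 4 had an unadjusted p under 0.05, all lower, against 22.7% of all genes in either direction. Among them ubc13, whose product acts in DNA damage tolerance, was at 61.3, 58.0 and 70.3 CPM in the wild type and 32.1, 40.1 and 40.4 CPM in the mutant (log2 fold change -0.75, SE 0.15). Its adjusted p was 0.0512, and 0.0118 without wild-type replicate 2. The highest in that list was ubc16 at 0.37 (0.16 without that library).

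The 9 shuttle and segregase genes, which bring ubiquitinated proteins to the proteasome, ran from -0.43 (ubx2) to 0.04 (dph1), with 1 above 0, and ubx2 was at -0.08 without wild-type replicate 2. Of 20 deubiquitinase genes 12 lay above 0, from -0.38 (ubp1) to 0.58 (ubp4). Without wild-type replicate 2 there were 9 above 0, with ubp1 at -0.11 and ubp4 at 0.14. The deubiquitinases that dock on the proteasome, ubp6 and uch2, were at 0.03 and -0.34 (adjusted p = 0.898 and 0.165). The genes of the SCF ligase ran from -0.91 (pof7) to 0.76 (pof13), and those of the anaphase-promoting complex, the ligase for cyclin and securin, from -1.60 (apc10) to 0.50 (apc15), where apc10 was at 5.36, 16.5 and 5.43 CPM in the wild type and at -0.85 without replicate 2. All 8 genes in the list of quality control ligases lay above 0, from 0.08 (rkr1) to 0.49 (ufd2), without a call. Leaving out that library put 7 of them above 0, with rkr1 at 0.02 and ufd2 at 0.24. Of 8 heat-induced chaperone genes 7 lay below 0, with ssa1 at -1.56 and hsp9 at 0.59. Leaving out wild-type replicate 2 gave 5 below 0, with ssa1 at -0.85. The values of all these lists are without the length correction.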

How the data were processed

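Per the file headers, the table deposited by the authors holds whole-number counts and FPKM by gene and library, beside a log2 ratio of the groups, its p-value and an adjusted p-value of their own. DESeq2, RSEM, StringTie, HISAT2, Bowtie2 and fastp stand in the submitters' processing notes, without versions. No source used here gives the build or the strand setting. The members and gene lists were chosen with earlier results of these data known, and genes outside the naming rule (called genes, the extremes of each role and list, duplicated pairs, extremes of level) were chosen after their values were seen.

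Counts were tested over the whole table in R 4.3.3 by edgeR (4.0.16, quasi-likelihood test), with TMM scaling, the default filter (4987 of 5160 genes kept), genotype as the only term and Benjamini-Hochberg adjustment. SE and 95% intervals come from this fit. Every adjusted p is from it unless another tool is named. The fit was tested on simulated data. The library deviation used CPM + 0.5. RefSeq ASM294v3 matched 5109 entries and all 44 members. Alternatives were other scaling, no filter, DESeq2 1.42.0, limma 3.58.1 on log2(FPKM + 1) or log2(FPKM + 0.1) for genes averaging 1 FPKM or more, or for all genes, a replicate block, removal of a lowess trend on exon length, and each library left out. No library copied another (chi-square per degree of freedom 26.7 to 280.0).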

Additional observations from a re-analysis of the deposited data

How the results depend on the processing

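The number of proteasome genes called was 0 under every alternative run except the DESeq2 Wald test, which called 1 (cut8). It was 0 to 0 with each library left out. The number of genes called over the whole table was 101, and 571 with DESeq2, 40 with the length trend removed, and 3 to 466 with a library left out (dropping wild-type replicate 1 gave 11, replicate 2 gave 466, replicate 3 gave 179, and dropping a mutant library in the same order gave 5, 7 or 3). The replicate block gave 3, and 36 together with removal of the length trend. Replicate numbers did not pair the libraries: deviations from the group mean correlated at 0.165, -0.358 and -0.187 for numbers 1, 2 and 3, and 2 of 6 libraries correlated best with their own number. With a library left out, the median log2 fold change was -0.11 to 0.04 over all members, -0.15 to -0.01 over core and -0.09 to 0.05 over regulatory particle genes. The regulatory median was -0.04, and 0.083 with the block and the length trend removed, where all genes had a median of 0.08. Over all 44 members and 16 alternatives, 45 of 704 log2 fold changes had the other sign, in 20 genes, with 11 where the length trend was removed, 9 with the block added and 4 without wild-type replicate 2. Of the 14 members that the naming rule gives, these were pup2 (0.21) and rpn501 (0.0623) with the length trend removed, and 0.22 and 0.083 with the block added. The cause was not tested. A 3-count floor is 0.151 to 0.202 CPM per library, for counting error only, far below every member.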

Other observations

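At least 1 intron was annotated in 28 of 44 members (63.6%), beside 48.8% of all matched genes tested. The 28 members with introns had a median log2 fold change of -0.09, with 9 above 0 and 19 below, and the 16 without introns one of 0.15, with 12 above 0 and 4 below. Over all genes the medians were -0.02 with introns and 0.02 without, and none of the 44 members was called. Across the members, as a description with shared libraries, log2 fold change followed exon length with a Spearman correlation of 0.391 (n = 44), beside 0.257 over 4951 genes. Median exon length was 1318 bases in members with introns and 1299 in those without. All these medians of log2 fold change are from the fit over all 6 libraries, without the length correction. Under that correction 11 of the 44 members had the other sign, and 4 had it without wild-type replicate 2. The part of introns was not tested.

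In budding yeast many proteasome promoters carry the letters GGTGGCAAA, bound by the factor Rpn4. On both strands of the 500 bases before the start codon in ASM294v3, 0 of the 44 members held these letters, beside 0.0979% of 5108 genes. The HomolD letters CAGTCACA, known from ribosomal protein promoters of fission yeast, were in 1 member, pre10, and in 2.86% of genes. These are matches of letters in this window and say nothing of the factors.

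On the other strand, 40 of 44 members had an annotated gene over part of their span, coding in 8, and in 17 it covered over 50%.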
